A study of Mus musculus with 8 samples.

Results

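The mitochondrial ribosomal proteins described here are the genes whose symbol in the deposited transcriptome table reads Mrpl or Mrps, then a number and at most 1 letter. There were 76 of them among 23361 genes in the table, 47 Mrpl genes named for the large subunit and 29 Mrps genes named for the small subunit. The rule used names and no measured value. Every one of the 76 reached 1 FPKM (fragments per kilobase, normalised for the size of the library) in at least 1 group, the level taken as expressed, which 11158 genes of the table reached.

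Mitochondria carry their own ribosome, which translates the few messenger RNAs encoded by mitochondrial DNA, all of them for subunits of the respiratory chain and the ATP synthase. Its proteins are encoded in the nucleus, made in the cytosol and imported, so the cell has to supply the proteins of both subunits from scattered genes. Some members have a counterpart in the bacterial ribosome and others were added in mitochondria. By structure, Mrps30 and Mrps18a sit in the large subunit despite their names, and Mrps36 is not counted as a ribosomal protein any more.

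The cells were established lines of mouse acute myeloid leukaemia (strain 129S6), derived from bone marrow and transformed with MLL-AF9, a fusion oncogene. The 4 groups were Cdc73fl/fl CreERT2 cells ("floxed") after 24 h, the same genotype after 48 h, and Cdc73 +/+ CreERT2 cells ("wild type") after 24 h and 48 h. All groups carried MLL-AF9 and the Cre that 4-hydroxytamoxifen (4OHT) switches on, and all received 7.5 nM 4OHT, so Cre activity and the drug are common to both sides. Cdc73 encodes parafibromin, a subunit of the PAF1 complex that travels with RNA polymerase II, and 4OHT excises it in the floxed cells only. Each group had 2 biological duplicates, giving 8 poly(A) libraries from cells grown with serum and interleukin 3. The authors' deposited table gives 1 FPKM per gene and group with the duplicates combined, and 1 q-value per gene and time, so no SD can be given and the q-values measure only the spread between duplicates as the authors modelled it. Floxed and wild type cells are separate lines, and libraries from before 4OHT were not analysed here, so a difference that the lines had before 4OHT cannot be told apart from the effect of excision. Read totals per library are not given in the sources used.

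Cdc73 itself stood at 5.96 FPKM in floxed cells and 26.2 FPKM in wild type cells at 24 h (authors' deposited q = 0.000449), and at 5.45 FPKM in floxed and 26.9 FPKM in wild type cells at 48 h (authors' deposited q = 0.000165). All 7 of the myeloid markers found in the table were expressed in every group, and of the markers of other lineages Cd3e and Hbb-b1 were at 0 in all 4 groups and only Pecam1 and Pf4 reached 1 FPKM in any group. These 2 summed to 5.40 FPKM in floxed and 8.54 FPKM in wild type cells at 24 h, and to 13.1 FPKM in floxed and 7.38 FPKM in wild type cells at 48 h, when Pf4, of megakaryocytes, stood at 10.8 FPKM in floxed and 0.977 FPKM in wild type cells. Myeloid markers moved with the comparison at both times. At 24 h Kit was lower, with 11.8 FPKM in floxed and 17.9 FPKM in wild type cells (authors' deposited q = 0.000831), and Mpo was higher, with 1986 FPKM in floxed and 1145 FPKM in wild type cells (authors' deposited q = 0.0238). At 48 h 5 of the 7 were higher and 2 lower, and Mpo was then lower, with 1011 FPKM in floxed and 1368 FPKM in wild type cells. Their summed level was 3096 FPKM in floxed and 2358 FPKM in wild type cells at 24 h, and 4634 FPKM in floxed and 2138 FPKM in wild type cells at 48 h. At 48 h Lyz2, lysozyme of mature myeloid cells, stood at 3333 FPKM in floxed and 587 FPKM in wild type cells, and Kit, the stem cell factor receptor of immature cells, at 5.42 FPKM in floxed and 17.1 FPKM in wild type cells. The part of this shift in the results below was not tested, and in bulk RNA fewer cells of a type and less RNA per cell cannot be told apart.

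Promoter sequences are shown for 5 members that mark the span of the responses: Mrps18b, Mrps27 and Mrpl55 were among the most strongly lower at 48 h, and Mrps18c and Mrpl52 were among the higher ones. Each line gives the 250 bases before the transcription start in RefSeq (build GRCm38.p6), 5′ to 3′ on the gene's strand, from chr17:35916441-35916690 (minus strand) for Mrps18b, chr5:100798509-100798758 (plus strand) for Mrps18c, chr13:99344536-99344785 (plus strand) for Mrps27, chr14:54426659-54426908 (plus strand) for Mrpl52 and chr11:59202236-59202485 (plus strand) for Mrpl55. Capitals mark matches, on either strand, to the core letters of 4 factors that are known at promoters of mitochondrial genes or growth genes, GCATGCG for NRF1, CCGGAAG for ETS factors such as GABP, AAGATGG for YY1 and CACGTG for the E-box of MYC and its relatives, and to TATAAA.
Mrps18b: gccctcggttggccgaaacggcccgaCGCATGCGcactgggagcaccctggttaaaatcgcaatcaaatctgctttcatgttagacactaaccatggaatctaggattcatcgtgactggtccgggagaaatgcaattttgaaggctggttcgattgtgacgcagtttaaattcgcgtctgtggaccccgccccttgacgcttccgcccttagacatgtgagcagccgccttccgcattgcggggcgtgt
Mrps27: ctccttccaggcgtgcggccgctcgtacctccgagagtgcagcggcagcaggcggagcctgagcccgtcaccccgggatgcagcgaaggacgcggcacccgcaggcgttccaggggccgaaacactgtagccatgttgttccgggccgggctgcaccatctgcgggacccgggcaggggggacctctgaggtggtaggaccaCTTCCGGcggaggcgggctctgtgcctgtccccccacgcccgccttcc
Mrpl55: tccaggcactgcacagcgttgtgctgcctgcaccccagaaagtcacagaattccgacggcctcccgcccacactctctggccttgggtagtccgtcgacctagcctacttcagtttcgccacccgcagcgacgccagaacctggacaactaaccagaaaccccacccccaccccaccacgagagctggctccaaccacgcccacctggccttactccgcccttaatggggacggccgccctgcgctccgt
Mrps18c: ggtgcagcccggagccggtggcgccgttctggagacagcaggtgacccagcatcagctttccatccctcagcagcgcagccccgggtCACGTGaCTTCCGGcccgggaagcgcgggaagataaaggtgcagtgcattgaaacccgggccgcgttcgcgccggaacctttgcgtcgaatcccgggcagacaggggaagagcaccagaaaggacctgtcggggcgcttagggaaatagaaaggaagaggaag
Mrpl52: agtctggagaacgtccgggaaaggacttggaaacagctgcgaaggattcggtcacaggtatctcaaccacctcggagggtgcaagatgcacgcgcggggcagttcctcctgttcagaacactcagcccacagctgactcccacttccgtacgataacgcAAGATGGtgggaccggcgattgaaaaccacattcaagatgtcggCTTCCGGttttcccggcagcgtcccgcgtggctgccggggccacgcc

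In the Mrps18b window the capitals are a palindromic NRF1 core, read on both strands with an overlap, which starts 223 or 224 bases before the RefSeq start. That start lies upstream of the gene's first base in GENCODE. Mrps27 holds an ETS core 48 bases before its start and Mrpl52 holds one 47 bases before, both on the opposite strand, and Mrpl52 also holds a YY1 core 91 bases before its start. Mrps18c holds an ETS core 156 bases and an E-box 163 bases before its RefSeq start, which lies downstream of the gene's first base in GENCODE. The Mrpl55 window holds none of these letters. Within these windows an ETS core therefore stands in front of a gene that was strongly lower, Mrps27, and in front of both of the higher genes shown. Mrps18b, also strongly lower, holds an ETS core after its RefSeq start, in bases that lie before the gene's first base in GENCODE.

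RefSeq promoters, read from 250 bases before to 50 bases after the start, could be matched to 67 of the 76 members (not to Mrpl13, Mrpl15, Mrpl19, Mrpl38, Mrpl4, Mrpl54, Mrps28, Mrps34 and Mrps35). The ETS core was found in 24 of the 67 (35.8%), against 21.9% of 8239 expressed genes and 9.93% of 27025 genes with a RefSeq promoter. The YY1 core was found in 13 members (19.4%), against 8.95% of the expressed genes and 7.28% of all genes, and the NRF1 core in 8 members (11.9%), against 7.78% and 4.01%. E-boxes stood in 5 members (7.46%), against 12.4% and 8.09%, and TATAAA in 5 members (7.46%), against 8.29% and 15.7%. The 3 cores for NRF1, ETS factors and YY1 together marked 36 members (53.7%), against 34.0% of expressed genes and 19.3% of all genes. Members with and without each core, E-box or TATAAA are set side by side after the results at 48 h.

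At 24 h a modest part of the set differed between the lines, and most of the members that differed were lower in floxed cells. A gene is called here where the authors' deposited q is under 0.05, with the direction read from the FPKM values. Of the 76 members 18 were called (23.7%), against a background of 27.6% of all 10987 genes tested at 24 h. The 15 called lower make up 19.7% of the members, against a background of 14.2%, and the 3 called higher make up 3.95%, against a background of 13.4%. The share called in either direction was thus near that of all genes, with fewer higher calls. The median log2 difference, floxed minus wild type on log2(FPKM + 1), was −0.15 over the members and −0.01 over all expressed genes.

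The large subunit had 10 of 47 members called at 24 h, all lower, and the small subunit had 8 of 29, with 5 lower and 3 higher. Median log2 differences were −0.15 for the large and −0.13 for the small subunit. Summed over members, large subunit transcripts came to 3159 FPKM in floxed and 3482 FPKM in wild type cells, a ratio of 0.907, and small subunit transcripts to 1855 FPKM in floxed and 1901 FPKM in wild type cells, a ratio of 0.976. All 3 of the higher calls thus fell in the small subunit. The difference between the subunits was not tested.

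Differences of 1.5-fold or more at 24 h were found in 5 called members of the 76. That is a smaller share than the background, 14.8% of genes called and past 1.5-fold. Mrpl51, a mitochondrial addition to the large subunit, stood at 60.9 FPKM in floxed and 99.8 FPKM in wild type cells, a ratio of 0.610 (authors' deposited q = 0.000449). Mrpl47, the counterpart of a bacterial protein at the exit of the peptide tunnel, stood at 29.3 FPKM in floxed and 45.9 FPKM in wild type cells, a ratio of 0.639 (authors' deposited q = 0.000831). In the small subunit Mrps23, which has no bacterial counterpart, stood at 45.4 FPKM in floxed and 73.6 FPKM in wild type cells, a ratio of 0.617. These genes were lower in floxed cells, as was Mrps18b with 52.7 FPKM in floxed and 84.99 FPKM in wild type cells, a ratio of 0.620. Mrps6 ran the other way, with 57.4 FPKM in floxed and 32.9 FPKM in wild type cells, a ratio of 1.74 (authors' deposited q = 0.000449).

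The remaining 13 calls at 24 h were smaller. Lower members spanned ratios from 0.610 to 0.783, and the other higher members were Mrps11 with 43.9 FPKM in floxed and 32.6 FPKM in wild type cells and Mrps24 with 66.2 FPKM in floxed and 50.5 FPKM in wild type cells. Uncalled members spanned ratios from 0.718 to 1.27, so the smallest called and the largest uncalled differences overlapped in size. Mrpl2, which lies near the peptidyl transferase centre, was the call nearest the threshold (authors' deposited q = 0.0478), and Mrpl24, near the tunnel exit, was the nearest on the other side (authors' deposited q = 0.0568).

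**Figure D1:**
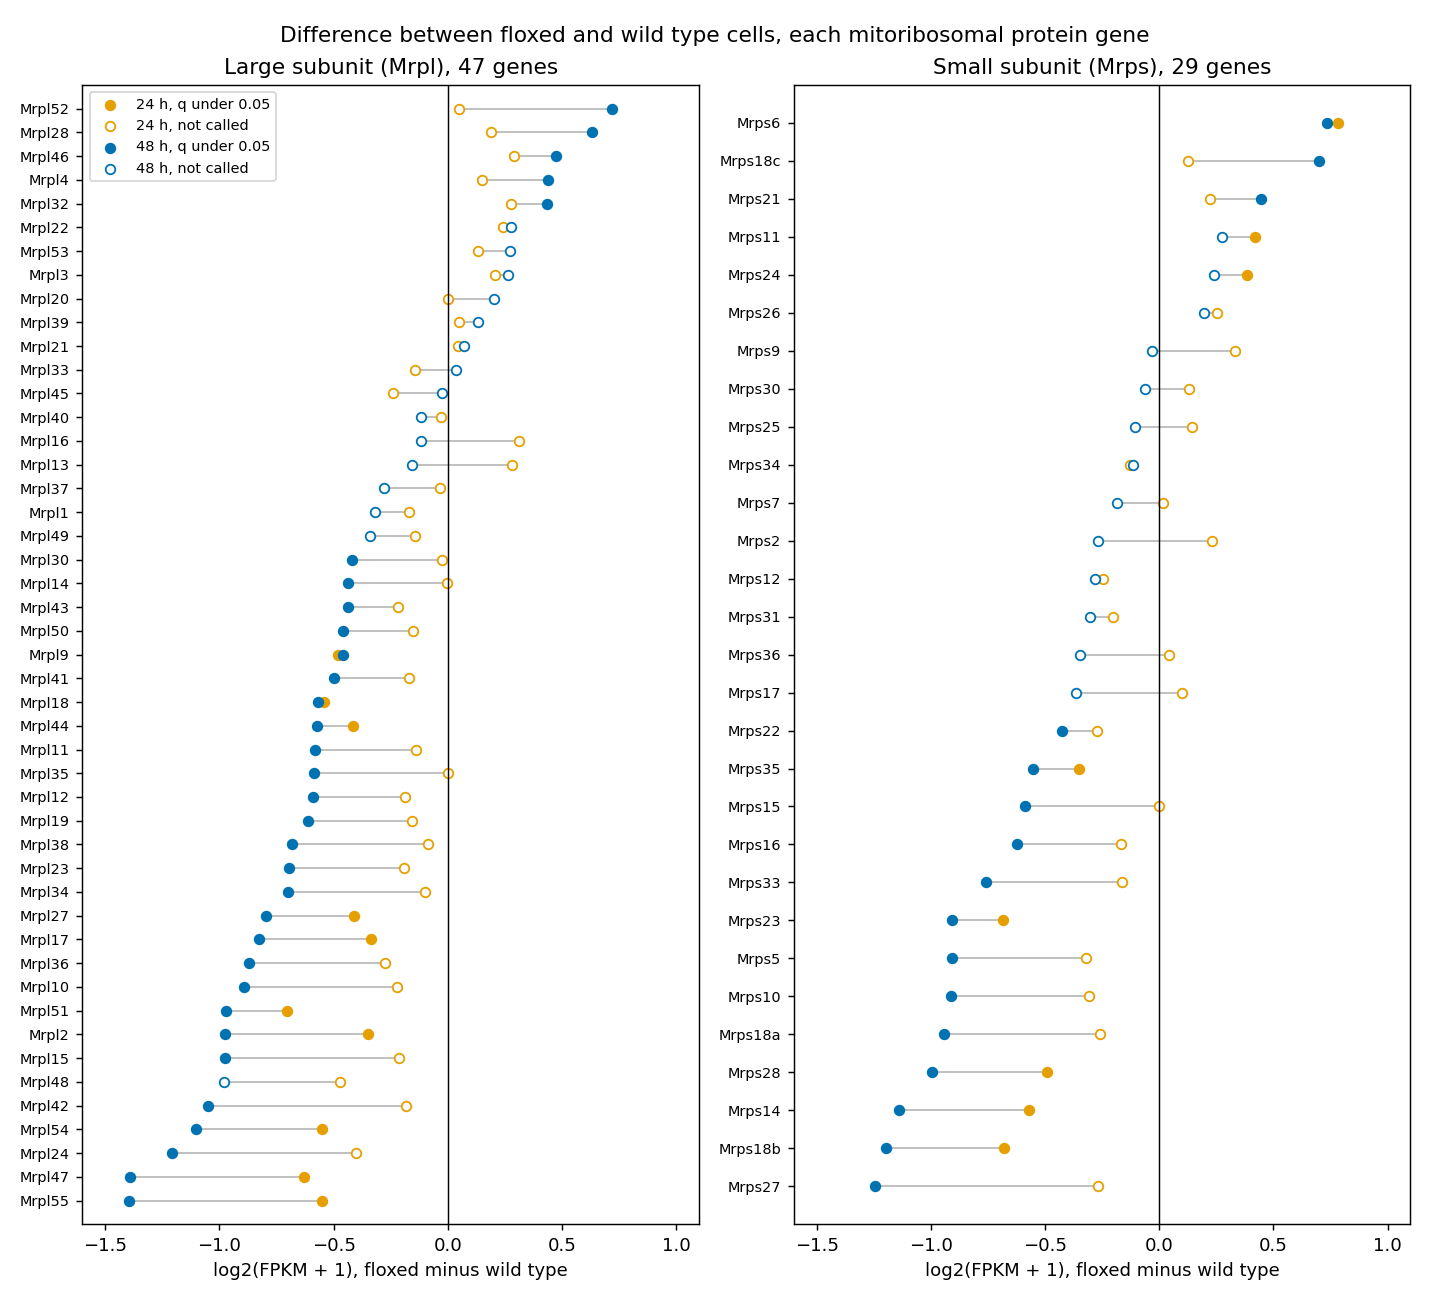
Difference in log2(FPKM + 1), floxed minus wild type cells, for each of the 76 members, by subunit. Colour marks the time, filled points are called by the authors' q and open points are not. As ratios of FPKM, floxed over wild type, called members lie between 0.610 and 1.74 at 24 h. At 48 h they lie between 0.361 and 1.69, with 40 lower and 8 higher.

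By 48 h of 4OHT the members were lower in floxed cells far more often than higher. Of the 76 members 48 were called (63.2%), against a background of 56.8% of 11039 genes tested. Lower calls numbered 40 (52.6% of members, background 31.0%) and higher calls 8 (10.5% of members, background 25.7%). The share called either way was close to that of all genes, and the split between directions was the part that stood away from it. The median log2 difference was −0.44 over the members and −0.06 over all expressed genes. Summed over the 76 members, transcripts came to 4409 FPKM in floxed and 5267 FPKM in wild type cells, a ratio of 0.837, against 5015 FPKM in floxed and 5383 FPKM in wild type cells at 24 h, a ratio of 0.932.

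Lower calls outnumbered higher calls in both subunits at 48 h. In the large subunit 27 of 47 members were lower (57.4%) and 5 were higher, with a median log2 difference of −0.46. In the small subunit 13 of 29 members were lower (44.8%) and 3 were higher, with a median of −0.35. Summed large subunit transcripts came to 2761 FPKM in floxed and 3406 FPKM in wild type cells, a ratio of 0.810, and small subunit transcripts to 1649 FPKM in floxed and 1861 FPKM in wild type cells, a ratio of 0.886. Without the 3 highest members of the small subunit, Mrps21, Mrps18c and Mrps16, its ratio was 0.751. With subunits assigned by structure instead of by name, 33 of 49 large and 15 of 26 small members were called. The difference between the subunits was not tested, since the table holds 1 value per group.

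Differences of 1.5-fold or more in the lower direction were found in 30 called members, 19 of the large and 11 of the small subunit, and 10 were lower by 2-fold or more. The backgrounds for called lower genes were 23.3% at 1.5-fold and 10.6% at 2-fold, and 43.5% of all tested genes were called and past 1.5-fold in either direction. Out of 76 members, the share lower at 1.5-fold was above its background, and the share at 2-fold was near it. Each lower member named in this paragraph and the next had an authors' deposited q of 0.000165. Mrpl55, annotated at chr11:59202486-59206134, fell to 11.7 FPKM in floxed cells, against 32.3 FPKM in wild type cells, a ratio of 0.361. Mrpl47 fell to 16.7 FPKM in floxed cells, against 45.6 FPKM in wild type cells, a ratio of 0.368. These were the largest differences of any called member.

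Members near the tunnel and the catalytic core of the large subunit, some of them picked after their values were seen, differed in direction. Mrpl24, Mrpl23 and Mrpl2 were lower, Mrpl3 and Mrpl22 were uncalled, and Mrpl4, which lines the tunnel, was higher. Mrpl24 stood at 26.4 FPKM in floxed and 62.3 FPKM in wild type cells, although its locus entry is shared with Rrnad1 and its reads may have been split between them. Mrpl23, a further exit protein, stood at 61.1 FPKM in floxed and 99.4 FPKM in wild type cells. Mrpl2 stood at 38.3 FPKM in floxed and 76.2 FPKM in wild type cells. Mrpl3, also a core protein, was not called, with 73.4 FPKM in floxed and 61.1 FPKM in wild type cells (authors' deposited q = 0.171), nor was Mrpl22 at the tunnel exit, with 58.1 FPKM in floxed and 47.8 FPKM in wild type cells (authors' deposited q = 0.169). The mitochondrial additions Mrpl54, Mrpl42 and Mrpl51 were also lower. Mrpl54 stood at 52.6 FPKM in floxed and 114 FPKM in wild type cells. Mrpl42 stood at 69.2 FPKM in floxed and 144 FPKM in wild type cells, and Mrpl51 at 49.1 FPKM in floxed and 97.1 FPKM in wild type cells. Mrpl15, which has a bacterial counterpart, was lower as well and stood at 15.7 FPKM in floxed and 31.9 FPKM in wild type cells.

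The stalk of the large subunit recruits the translation GTPases, and 3 members at the stalk and its base, grouped after their values were seen, were called lower at 48 h. Mrpl12, the stalk protein that has been reported to bind mitochondrial RNA polymerase in human cells, stood at 128 FPKM in floxed and 193 FPKM in wild type cells, a ratio of 0.663 (authors' deposited q = 0.00162). Mrpl10, its anchor, stood at 31.3 FPKM in floxed and 58.95 FPKM in wild type cells, a ratio of 0.531, and Mrpl11, at the stalk base, at 11.2 FPKM in floxed and 17.2 FPKM in wild type cells, a ratio of 0.649. At 24 h none of these was called, with ratios of 0.854 for Mrpl10, 0.903 for Mrpl11 and 0.879 for Mrpl12. Mrpl44, which has a fold like RNase III, was lower at both times, with 36.2 FPKM in floxed and 48.6 FPKM in wild type cells at 24 h and 34.9 FPKM in floxed and 52.4 FPKM in wild type cells at 48 h. Mrpl45, which ties the ribosome to the inner membrane, was called at neither time and stood at 31.6 FPKM in floxed and 32.2 FPKM in wild type cells at 48 h.

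In the small subunit the lowest ratio at 48 h belonged to Mrps27, a pentatricopeptide repeat protein annotated at chr13:99344786-99415562, with 10.7 FPKM in floxed and 26.8 FPKM in wild type cells, a ratio of 0.400 (authors' deposited q = 0.000165). Its locus entry is shared with 6430562O15Rik, so its value is uncertain. Mrps14 stood at 24.7 FPKM in floxed and 55.5 FPKM in wild type cells. Mrps28 stood at 32.5 FPKM in floxed and 65.6 FPKM in wild type cells. Mrps14 and Mrps28 were already lower at 24 h, and Mrps27 was uncalled then. Mrps5 and Mrps10, which have bacterial counterparts, were lower at 48 h and uncalled at 24 h. Mrps5 stood at 25.5 FPKM in floxed and 48.8 FPKM in wild type cells, and Mrps10 at 23.7 FPKM in floxed and 45.5 FPKM in wild type cells. Mrps23, lower at both times, stood at 36.4 FPKM in floxed and 69.1 FPKM in wild type cells. Mrps12, the counterpart of a bacterial protein of the decoding centre, was called at neither time, with 63.4 FPKM in floxed and 77.3 FPKM in wild type cells at 48 h (authors' deposited q = 0.165).

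The 3 genes descended from bacterial S18 differed in direction. Mrps18b, at chr17:35910379-35916389, stood at 34.7 FPKM in floxed and 80.8 FPKM in wild type cells at 48 h, a ratio of 0.430, and was lower at both times. Mrps18a, whose product sits in the large subunit, stood at 28.3 FPKM in floxed and 55.4 FPKM in wild type cells, a ratio of 0.511, with an authors' deposited q of 0.172 at 24 h and 0.000165 at 48 h. Mrps18c, at chr5:100798627-100804471, the paralog closest to the bacterial protein, rose to 238 FPKM in floxed cells at 48 h, against 146 FPKM in wild type cells, a ratio of 1.63 (authors' deposited q = 0.000165). At 24 h it stood at 163 FPKM in floxed and 149 FPKM in wild type cells and was not called. Mrps18c was the most abundant of the 3 paralogs in every group, and Mrps18b and Mrps18a together were below it.

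The other higher members at 48 h, picked out after their values were seen, lay in both subunits. In the large subunit Mrpl52, at chr14:54426909-54429756, stood at 123 FPKM in floxed and 74.1 FPKM in wild type cells, a ratio of 1.65, and Mrpl28 at 110 FPKM in floxed and 70.4 FPKM in wild type cells, a ratio of 1.56. Mrpl46 stood at 55.03 FPKM in floxed and 39.4 FPKM in wild type cells, Mrpl4 at 67.1 FPKM in floxed and 49.3 FPKM in wild type cells, and Mrpl32, a protein that is matured by the m-AAA protease, at 77.04 FPKM in floxed and 56.7 FPKM in wild type cells. Their ratios ran from 1.36 to 1.65. In the small subunit Mrps6 stood at 51.7 FPKM in floxed and 30.7 FPKM in wild type cells. Mrps21 stood at 306 FPKM in floxed and 224 FPKM in wild type cells. Mrps6 shares its locus entry with Slc5a3, so its value at both times is uncertain.

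In bacterial ribosomes the counterparts of Mrps6, Mrps11, Mrps18c and Mrps21 neighbour each other on the platform of the small subunit. These 4 were grouped after their values were seen, and their higher calls fell at different times. Mrps6 was called higher at both times, Mrps11 at 24 h only, and Mrps18c and Mrps21 at 48 h only. Mrps24, outside this group, was also called higher at 24 h only. Mrps15, whose counterpart lies on the same platform, was lower at 48 h with 57.8 FPKM in floxed and 87.3 FPKM in wild type cells. Of the 15 small subunit members with a bacterial counterpart, 3 were higher and 5 lower at 48 h, with a median log2 difference of −0.27, and of the 14 members listed without one none was higher and 8 were lower, with a median of −0.49. That list of 14 holds Mrps18a and Mrps18b, which are paralogs of a bacterial protein, and Mrps30 and Mrps36, which are not small subunit proteins by structure. The members were regrouped after the data were seen, with the Mrps18 genes as counterparts and subunits by structure. In that grouping 6 of 16 small subunit members listed with a counterpart and 6 of 10 listed as additions were lower. Among large subunit members 19 of the 30 with a counterpart were lower, with a median of −0.57, and 8 of the 17 additions were lower, with a median of −0.44. Regrouped in the same way, these were 20 of 31 and 8 of 18. The splits by counterpart were not tested.

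Nearest the threshold at 48 h were Mrpl30, called lower with 96.7 FPKM in floxed and 130 FPKM in wild type cells (authors' deposited q = 0.0286), and Mrps17, uncalled with 46.8 FPKM in floxed and 60.6 FPKM in wild type cells (authors' deposited q = 0.0568). Uncalled members spanned ratios from 0.4996 to 1.22. The lowest of these was Mrpl48, which stood at 33.3 FPKM in floxed and 66.6 FPKM in wild type cells with an authors' deposited q of 0.105, and whose locus entry is shared with Rab6a. In all, 9 members share a locus entry with another gene, and without them 43 of 67 members were called at 48 h.

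Levels within the set differed widely, and FPKM is scaled to length so that genes can be compared. The highest of the large subunit was Mrpl33, with 326 FPKM in floxed and 360 FPKM in wild type cells at 24 h and 367 FPKM in floxed and 358 FPKM in wild type cells at 48 h, and it was called at neither time. Mrpl20, with 188 FPKM in floxed and 188 FPKM in wild type cells at 24 h and 205 FPKM in floxed and 178 FPKM in wild type cells at 48 h, was also uncalled. Of the 3 most abundant small subunit members, Mrps21 (mean of the 4 groups 255 FPKM) and Mrps18c (174 FPKM) were higher at 48 h, and Mrps16 (129 FPKM) was lower, with 92.4 FPKM in floxed and 143 FPKM in wild type cells.

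The least abundant large subunit members were Mrpl35, Mrpl17 and Mrpl1, with means of 11.2, 14.2 and 15.4 FPKM. Mrpl35 and Mrpl17 were lower at 48 h, and Mrpl1 was uncalled. At 48 h Mrpl35 stood at 7.76 FPKM in floxed and 12.1 FPKM in wild type cells. Mrpl17 stood at 8.79 FPKM in floxed and 16.4 FPKM in wild type cells, and Mrpl1 at 13.2 FPKM in floxed and 16.7 FPKM in wild type cells. In the small subunit Mrps25, Mrps31 and Mrps27 were lowest, with means of 11.1, 12.1 and 21.2 FPKM. Mrps25 and Mrps31 were called at neither time. Over the 76 members the log2 difference at 48 h was hardly ordered by mean FPKM (Spearman's rho = 0.14, across genes that share the same 8 libraries) or by the length of the gene in the genome (rho = −0.003).

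**Figure D2:**
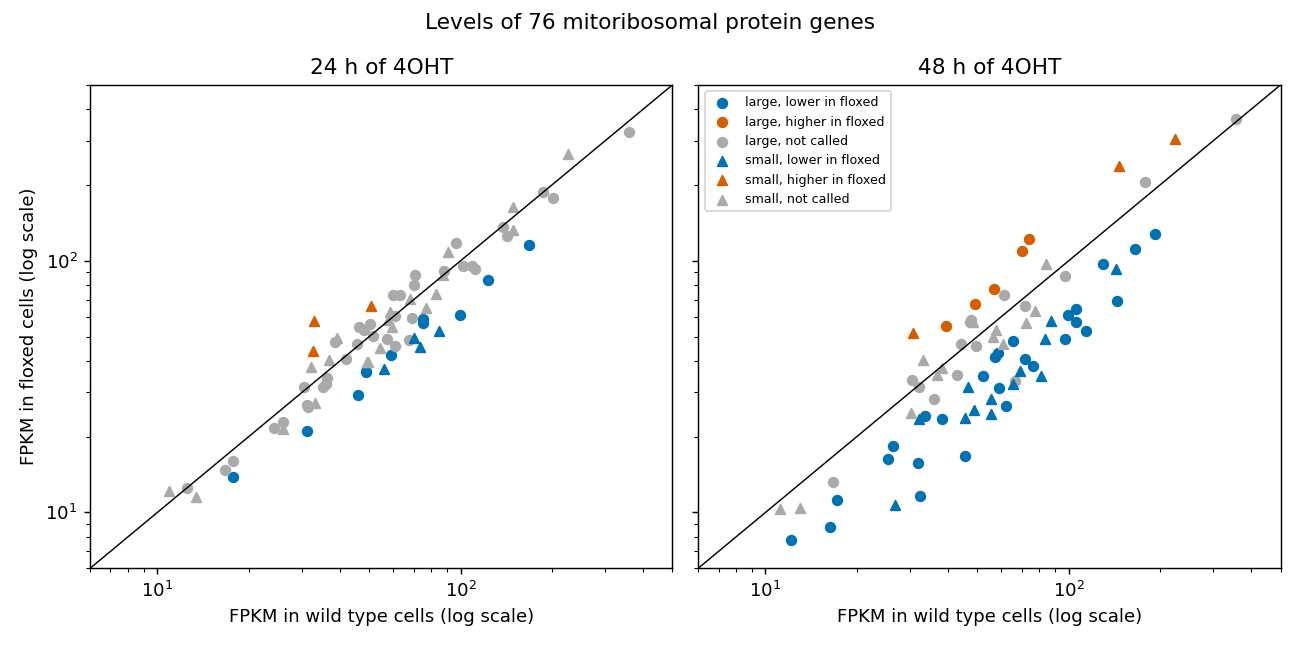
FPKM in floxed cells against FPKM in wild type cells for the 76 members at 24 h and 48 h, on log axes with the line of equal values. At 48 h most points lie under the line, while Mrps18c (238 against 146 FPKM) and Mrps21 (306 against 224 FPKM) lie above it.

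The 2 times shared most of their direction. All 15 members lower at 24 h were lower at 48 h as well, Mrps6 was higher at both, no member was called in opposite directions, and 26 members were called at neither time. The log2 differences at 24 h and 48 h were ordered alike over the 76 members (Spearman's rho = 0.83, as a description, since the members share libraries). The ratio of floxed over wild type was lower at 48 h than at 24 h in 59 members (77.6%), in 33 of 47 of the large and 26 of 29 of the small subunit, against 55.5% of all expressed genes. Mrpl18, picked after its values were seen, was among the few lower members whose difference was nearly as large at 24 h, with 115 FPKM in floxed and 168 FPKM in wild type cells at 24 h and 112 FPKM in floxed and 166 FPKM in wild type cells at 48 h.

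Within a line the scaling between times is not given, so the times are set side by side without a call. In floxed cells the ratio of FPKM at 48 h over 24 h had a median of 0.80 over the members, with a range from 0.50 to 1.46, and 62 members were below 1. Wild type cells had a median of 0.98, a range from 0.84 to 1.08, and 48 members below 1. Medians over all expressed genes were 0.937 in floxed and 0.991 in wild type cells. Values between times were spread more widely in the floxed line, from Mrps27 at 0.50 to Mrps18c at 1.46.

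**Figure D3:**
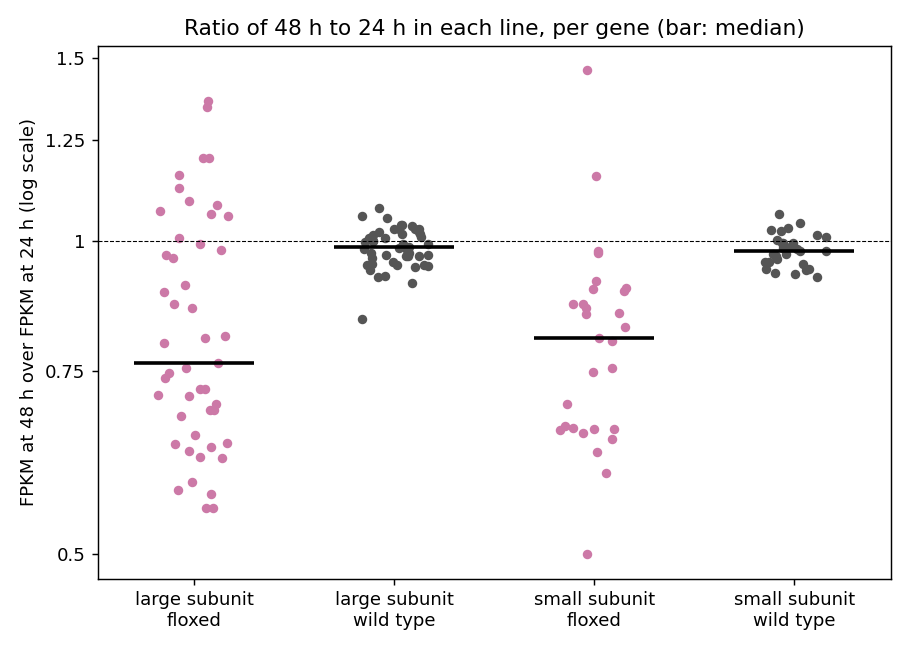
Ratio of FPKM at 48 h over 24 h for each of the 76 members within floxed and within wild type cells, by subunit. Medians over all members are 0.80 in floxed and 0.98 in wild type cells, and wild type values stay between 0.84 and 1.08.

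Grouped by the ETS core in the promoter, 13 of 24 members with the core were lower and 3 higher at 48 h, with a median log2 difference of −0.50, and 21 of 43 members without it were lower and 4 higher, with a median of −0.37. The ETS core was thus present in members of either direction, Mrps18b, Mrps23 and Mrps27 on the lower side and Mrps18c, Mrps21 and Mrpl52 on the higher side. In Mrps18b it lies after the RefSeq start, which is upstream of the gene's first base in GENCODE. For the NRF1 and YY1 cores, the E-box and TATAAA, members that held the letters had the less negative median at 48 h. Medians with and without them were −0.21 and −0.42 for NRF1 and −0.28 and −0.44 for YY1. They were −0.28 and −0.43 for the E-box and −0.12 and −0.44 for TATAAA, with 5 members holding each of these 2. None of these splits was tested.

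Lists of genes that work with the mitochondrial ribosome were read against the same background at 48 h, 31.0% of all tested genes lower and 25.7% higher. At 24 h the background was 14.2% lower and 13.4% higher. Lower calls made up 57.1% of mitoribosomal proteins with other names, 48.1% of assembly factors, 70.6% of translation factors and 76.5% of mitochondrial tRNA synthetases, against 25% of genes for mitochondrial DNA expression and 9.21% of cytosolic ribosomal proteins. Of 7 mitoribosomal proteins with other names 4 were lower and 2 higher at 48 h, with a median log2 difference of −0.37. Ict1, a peptidyl-tRNA hydrolase built into the large subunit, stood at 24.9 FPKM in floxed and 47.4 FPKM in wild type cells. Gadd45gip1, also a large subunit protein, stood at 22.7 FPKM in floxed and 39.01 FPKM in wild type cells, and shares its locus entry with another gene. Mrp63 stood at 17.6 FPKM in floxed and 23.1 FPKM in wild type cells. At 24 h Ict1 and Gadd45gip1 were the only called members of that list, both lower (28.6% of the 7 genes).

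Of 27 assembly factors 13 were lower and 4 higher at 48 h (median −0.39), against 3 and 3 at 24 h. Each of these 24 h counts is 11.1% of the list, under the background of 14.2% lower and 13.4% higher. Tfb1m, the methyltransferase of the small subunit RNA, stood at 5.36 FPKM in floxed and 12.8 FPKM in wild type cells at 48 h. Its locus entry is shared with other genes. At 48 h Gtpbp10, an assembly GTPase of the large subunit, stood at 4.66 FPKM in floxed and 11.03 FPKM in wild type cells. Fastkd2, an RNA-binding protein, stood at 5.98 FPKM in floxed and 13.8 FPKM in wild type cells. The widest difference of this list at 24 h was Mettl17, with 3.101 FPKM in floxed and 6.36 FPKM in wild type cells.

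Translation factors had 12 of 17 genes lower and 1 higher at 48 h (median −0.64), and mitochondrial tRNA synthetases had 13 of 17 lower and 1 higher (median −0.83). The release factor gene Mtrf1 stood at 2.99 FPKM in floxed and 8.65 FPKM in wild type cells at 48 h, and Guf1, a translation GTPase, at 4.43 FPKM in floxed and 9.96 FPKM in wild type cells. Slirp, a partner of Lrpprc in mitochondrial RNA binding, stood at 71.3 FPKM in floxed and 187 FPKM in wild type cells, but shares its locus entry with other genes. The synthetases with the lowest ratios were Sars2, Wars2 and Ears2, which load serine, tryptophan and glutamate. Sars2 stood at 3.57 FPKM in floxed and 9.78 FPKM in wild type cells. Wars2 stood at 1.04 FPKM in floxed and 2.801 FPKM in wild type cells. Ears2 stood at 2.69 FPKM in floxed and 6.77 FPKM in wild type cells. Lars2, the 1 higher synthetase, was the most abundant, with 590 FPKM in floxed and 409 FPKM in wild type cells at 48 h. It was higher at 24 h as well, with 380 FPKM in floxed and 240 FPKM in wild type cells. With Lars2 included, the summed ratio of the synthetases, floxed over wild type, was 1.24 at 24 h and 1.14 at 48 h. That sum mostly follows Lars2, which held 380 of 571 FPKM in floxed cells at 24 h and 590 of 719 FPKM at 48 h. The median ratio over the 17 genes was 0.838 at 24 h and 0.503 at 48 h. The ratio was below 1 in 14 of the 17 at 24 h and in 15 at 48 h. Lars2 also differed between times in wild type cells, where its value at 48 h was 1.70 times that at 24 h. At 24 h translation factors had 2 lower (11.8%) and 1 higher (5.88%) calls, and synthetases had 2 lower (11.8%) and 2 higher (11.8%) calls. These shares were under the 24 h background of 14.2% lower and 13.4% higher.

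Genes for the copying and transcription of mitochondrial DNA had 2 of 8 lower (25%, under the background of 31.0%) and 1 higher at 48 h, with a median log2 difference of −0.05. Tefm, the elongation factor of mitochondrial transcription, stood at 4.37 FPKM in floxed and 10.98 FPKM in wild type cells. Tfam, which packages the DNA, stood at 10.7 FPKM in floxed and 17.3 FPKM in wild type cells. Polg, the polymerase that copies the DNA, stood at 29.6 FPKM in floxed and 14.6 FPKM in wild type cells, but shares its locus entry with another gene. Cytosolic ribosomal proteins, 76 genes as well, had 7 lower and 1 higher at 48 h and 2 lower at 24 h, with median log2 differences of −0.07 at 48 h and −0.11 at 24 h. None of the messenger or ribosomal RNAs encoded by mitochondrial DNA could be matched by symbol, so the templates of the mitochondrial ribosome were not analysed here.

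**Figure D4:**
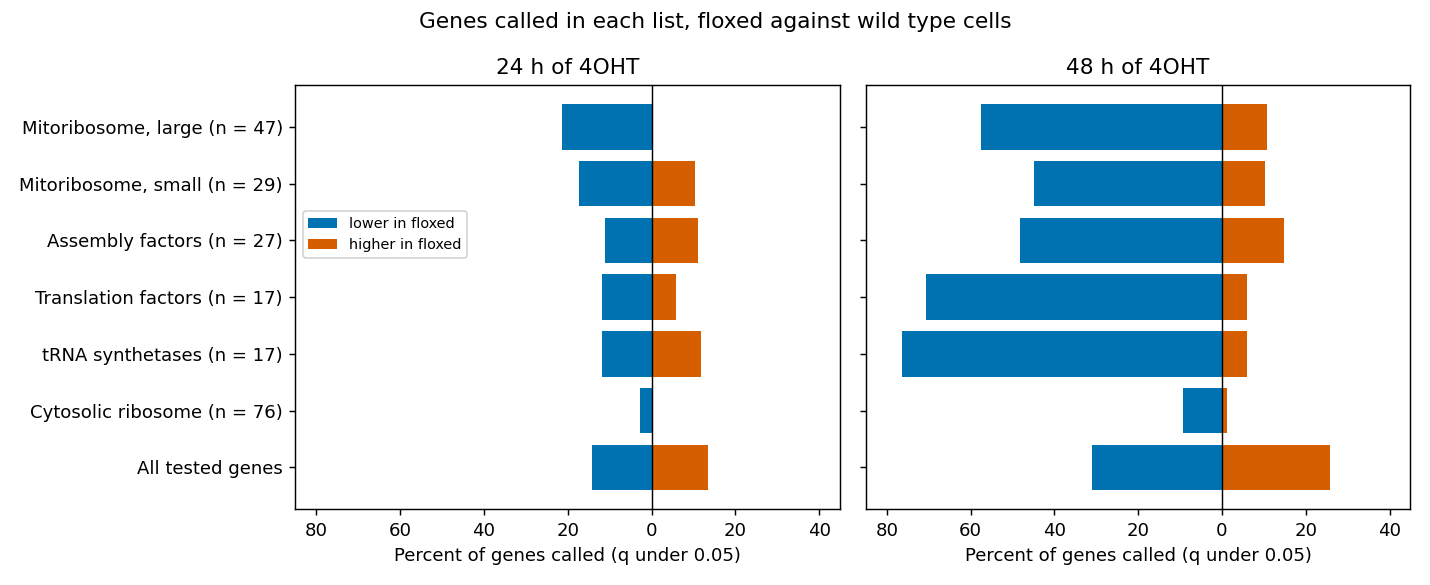
Percent of genes called lower (left of 0) and higher (right of 0) in floxed cells at 24 h and 48 h, for both mitoribosomal subunits, the lists of related genes, the cytosolic ribosomal proteins and all tested genes. At 48 h lower calls make up 57.4% of large and 44.8% of small subunit members, against 31.0% of all tested genes.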

How the data were processed

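Poly(A) RNA of 8 libraries in 4 groups was read on an Illumina HiSeq, per the labels' protocols. Bowtie2, Cufflinks 2.1, Cuffdiff and the build mm10 are named without roles, per the submitters' processing notes. The authors deposited 1 FPKM per gene and group, per the file headers, with the duplicates combined, and 1 authors' q-value per gene and time for the comparison of the lines. FPKM is relative to the other RNA of a library and does not show total RNA. Strandedness, the annotation used for counting, the depth and the scaling between times are not given in the sources used. The fold columns of the table were not used.

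Symbols were matched to the naming rule and to gene lists. The members and the lists were chosen with earlier results of these data known. A gene was called where the authors' q was under 0.05 and expressed where it reached 1 FPKM in at least 1 group. Median differences were taken on log2(FPKM + 1), a pseudocount of 1, which understates differences of low genes. No further test was run, since 1 value per group leaves no spread. Genes named in the text were, per time and subunit, called members at 1.5-fold or more (the 8 furthest from 1 where there were more), the 3 highest and 3 lowest by mean FPKM, those nearest the threshold, the Mrps18 paralogs, Mrpl12, Mrpl44 and Mrps12. For lists of genes that work with the mitochondrial ribosome they were the 3 called genes per list with ratios furthest from 1 in either direction at 48 h. Called genes of these lists at 24 h were given only in part. The stalk, tunnel, membrane and platform members, Mrpl18, Mrpl48 and the higher members under 1.5-fold were added after their values were seen.

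Coordinates are 1-based, from GENCODE M21 on GRCm38, the assembly of mm10, in which all 76 members were found. Promoters are RefSeq's on GRCm38.p6, and for 70 of 73 promoter entries of the members the bases after the start lay in a GENCODE transcript of that gene. Alternatives were a q under 0.01, other pseudocounts (0.1 and 5), filters on low values, rescaled groups and sets of members. Values were computed with Python 3.11.15, pandas 2.3.3 and numpy 2.4.6. Only the trimmed mean factor was tested on simulated data, not the counting.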

Additional observations from a re-analysis of the deposited data

How the results depend on the processing

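With a q under 0.01, 11 of the 76 members were called at 24 h in place of 18 (1 higher and 10 lower), 6 in place of 10 in the large and 5 in place of 8 in the small subunit. At 48 h that threshold called 37 members (4 higher and 33 lower), with 2 higher and 21 lower in the large subunit in place of 5 and 27, and 2 higher and 12 lower in the small subunit in place of 3 and 13. Without its 3 highest members the small subunit's summed ratio at 48 h was 0.751 in place of 0.886. The other counts of members called in either direction stayed within 1.5 times under the alternatives run, and the other medians and sums moved by less than 0.1 on the log2 scale. Regrouping by bacterial counterpart was an alternative chosen after seeing the data. It moved lower calls of small subunit members listed as additions to 6 of 10 in place of 8 of 14. Rescaling the groups to the same FPKM sum gave a median log2 difference at 48 h of −0.53 over the members, and a trimmed mean factor gave −0.37, with the median of all expressed genes shifted by −0.09 and 0.06. A pseudocount of 5 brought the log2 difference of 9 members at 48 h closer to 0 by more than 0.1, and none turned its direction. Leaving out each duplicate was not run, because the table combines them. No paired analysis was possible because the table gives 1 combined value per group. The depth behind low members such as Mrpl35 is not known.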

Other observations

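Several members share a promoter region with a gene that runs the other way. With starts at most 1000 bases apart, or an overlap of at most 500 bases, 24 members faced an expressed neighbour, a set chosen after the values were seen, in which Mrpl46 and Mrps11 face each other and are counted from both sides. Of 12 such members lower at 48 h, 6 had a neighbour that was lower, 1 a neighbour that was higher and 5 an uncalled neighbour. Of 3 that were higher, 1 had a higher neighbour and 2 an uncalled one. Of the uncalled members 3 had a lower neighbour, 2 a higher one and 4 an uncalled one. Over all tested genes 31.0% were lower and 25.7% higher at 48 h. Helq, a DNA helicase gene whose start lies 29 bases from that of Mrps18c, stood at 6.28 FPKM in floxed and 2.91 FPKM in wild type cells at 48 h, a ratio of 2.16 (authors' deposited q = 0.000165), beside a ratio of 1.63 for Mrps18c. Ptcd2, which faces Mrps27, stood at 20.7 FPKM in floxed and 40.1 FPKM in wild type cells, a ratio of 0.517, beside 0.400 for Mrps27. Klc4, a kinesin light chain gene that faces Mrpl2, ran against it, with 13.3 FPKM in floxed and 6.53 FPKM in wild type cells at 48 h. Sars2, the mitochondrial seryl-tRNA synthetase, was lower with a ratio of 0.365, while Mrps12, which it faces, was uncalled at 0.821.

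Among 8 expressed genes for factors known to act on genes of mitochondria, 4 were lower and none higher at 48 h by the authors' deposited q (background 31.0% lower). Ppargc1b, a coactivator, stood at 0.483 FPKM in floxed and 1.703 FPKM in wild type cells. Myc stood at 71.2 FPKM in floxed and 126 FPKM in wild type cells. Pprc1 stood at 9.39 FPKM in floxed and 15.8 FPKM in wild type cells and Gabpb1, a subunit of GABP, at 16.02 FPKM in floxed and 21.4 FPKM in wild type cells. Nrf1, Gabpa and Yy1 were uncalled. Nrf1 stood at 15.8 FPKM in floxed and 17.2 FPKM in wild type cells. Gabpa, whose locus entry is shared with another gene, stood at 20.4 FPKM in floxed and 24.5 FPKM in wild type cells. Yy1 stood at 60.9 FPKM in floxed and 59.8 FPKM in wild type cells. At 24 h only Ppargc1b of this list was called, with 1.04 FPKM in floxed and 2.08 FPKM in wild type cells. That is 12.5% of the 8 genes, against a background of 14.2% lower. Myc stood at 150.5 FPKM in floxed and 120 FPKM in wild type cells at 24 h. Whether these genes bear on the members was not tested.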
